A study of Mus musculus with 6 samples.

Results

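Voltage-gated calcium channels open when a neuron depolarises and let calcium into the cell, where it triggers transmitter release, opens calcium-activated potassium channels and drives gene expression. Each channel is built on a pore subunit encoded by a gene of the Cacna1 family. The L-type pores Cacna1c (Cav1.2) and Cacna1d (Cav1.3) couple activity to the nucleus and to pacemaking, the P/Q-, N- and R-type pores Cacna1a (Cav2.1), Cacna1b (Cav2.2) and Cacna1e (Cav2.3) serve presynaptic terminals and dendrites, and the T-type pores Cacna1g (Cav3.1), Cacna1h (Cav3.2) and Cacna1i (Cav3.3) open near the resting potential and shape burst firing. In the cerebellum the P/Q-type channel carries most of the calcium current of Purkinje cells, and Cacna1a and Cacna1g are both genes of inherited ataxia in humans. The members of the family are 17 probe sets, out of 45037 tested, that the platform annotation gives exactly 1 gene symbol of the 8 genes above. They cover 7 of the 8 genes, with 4 probe sets each for Cacna1a and Cacna1b, 2 each for Cacna1c, Cacna1d, Cacna1e and Cacna1h, and 1 for Cacna1g. Cacna1i has no probe set under this rule and is not analysed here.

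The samples were cerebella of daDREAM transgenic mice and of wild-type mice, 3 arrays of each and 6 in all, hybridised to Affymetrix Mouse Genome 430 2.0 arrays. DREAM, also called KChIP3 or calsenilin and encoded by Kcnip3, is a calcium-binding protein that represses transcription at DRE sites and binds Kv4 potassium channels. In cerebellar stellate cells KChIP3 is known to link T-type channels to Kv4 channels. The daDREAM protein is a mutant that stays an active repressor when calcium rises. The labels state neither the promoter that drives the transgene nor the number of transgenic lines, nor the strain, sex and age of the mice. Frozen tissue was the RNA source, each array is labelled an independent biological replicate, and the values are log2 signals of whole cerebellum. In such tissue a lower signal from fewer cells of a type cannot be told apart from less RNA per cell.

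Markers of cerebellar neurons were bright on every array. Pcp2 and Calb1, markers of Purkinje cells, averaged 12.46 and 12.24 in daDREAM and 12.41 and 12.27 in wild type, and Gabra6, a marker of granule cells, averaged 11.99 in daDREAM and 12.05 in wild type. The 7 forebrain markers were not uniformly low. Tbr1, Neurod6, Drd1 and Drd2 averaged 2.91, 3.05, 4.00 and 4.27 in daDREAM and 2.75, 3.04, 4.04 and 4.27 in wild type. Emx1, Rgs9 and Ppp1r1b averaged 5.15, 7.19 and 9.07 in daDREAM and 5.23, 6.96 and 9.02 in wild type. The 6 arrays differed in ways the genotype label does not fix. The interquartile range of all signals was 3.49 in daDREAM replicate 1, 3.15 in replicate 2 and 2.97 in replicate 3, against 3.27, 3.38 and 3.10 in wild-type replicates 1, 2 and 3. The mean of 18 hybridization control probe sets was 9.47 to 10.47 in daDREAM and 8.99 to 9.48 in wild type. The gap between the 3′ and 5′ actin control probe sets, a measure of RNA and cRNA integrity, was 0.58 to 0.96 in daDREAM and 0.78 to 0.79 in wild type.

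Because the DREAM protein is known to bind the DRE core GTCA, promoters of measured members that hold these letters are shown where a window was available. RefSeq start sites of build GRCm38.p6 gave windows for 5 member genes, 8 windows in all, each cut to the 250 bases before the start. These genes were Cacna1b, Cacna1c, Cacna1d, Cacna1e and Cacna1i. Cacna1a, Cacna1g and Cacna1h had no window, so their promoters were not searched. GTCA was searched on both strands, as GTCA or TGAC, and matches were allowed to overlap. It lay in 4 of the 8 windows, while 80.2% of the 32851 windows of all genes held it. The window of Cacna1b (chr2:24763153-24763402, minus strand) held 3 matches, 91, 87 and 59 bases before the start. The most upstream of the 3 Cacna1c starts (chr6:119196410-119196659, minus strand) held 5 matches between 161 and 58 bases before the start. The upstream Cacna1d start (chr14:30491157-30491406, minus strand) held 2 matches, 163 and 55 bases before the start. Capitals mark GTCA or TGAC, and the sequences read 5′ to 3′ toward the start.
Cacna1b: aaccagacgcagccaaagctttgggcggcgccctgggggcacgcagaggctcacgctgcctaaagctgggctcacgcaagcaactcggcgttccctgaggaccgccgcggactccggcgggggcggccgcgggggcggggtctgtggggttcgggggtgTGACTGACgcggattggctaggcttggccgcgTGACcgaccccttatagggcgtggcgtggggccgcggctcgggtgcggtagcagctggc
Cacna1c: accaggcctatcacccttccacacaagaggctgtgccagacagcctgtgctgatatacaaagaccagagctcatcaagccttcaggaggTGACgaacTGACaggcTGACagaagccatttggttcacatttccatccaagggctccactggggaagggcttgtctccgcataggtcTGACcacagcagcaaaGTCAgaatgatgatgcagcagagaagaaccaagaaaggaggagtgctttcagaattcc
Cacna1d: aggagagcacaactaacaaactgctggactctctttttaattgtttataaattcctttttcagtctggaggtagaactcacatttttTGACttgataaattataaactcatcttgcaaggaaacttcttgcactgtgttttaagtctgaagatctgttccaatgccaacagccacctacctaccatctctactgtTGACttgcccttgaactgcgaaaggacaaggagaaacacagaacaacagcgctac

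The windows of Cacna1e, of the other 2 Cacna1c starts and of the other Cacna1d start held no GTCA or TGAC. The Cacna1i window also held the letters, with 2 matches. The windows differed widely in base composition. The middle Cacna1c start and the downstream Cacna1d start were 82.8% and 86.4% GC with 48 and 50 CpG dinucleotides, and the Cacna1b window was 72% GC with 29. The Cacna1c and Cacna1d windows printed above were 51.6% and 39.6% GC with 2 CpG each. Over all windows the median was 52.4% GC and 6 CpG. The full cAMP response element, searched as TGACGTCA, lay in 0 of the 8 windows and in 1.55% of all windows. A match is a description of letters and not a bound site.

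The T-type pore Cacna1g gave the highest signal of the family in both genotypes. Its probe set 1423365_at read 9.60, 9.31 and 9.33 in daDREAM and 9.46, 9.61 and 9.37 in wild type, above 95.4% of all tested probe sets in each. The R-type pore Cacna1e came second at 1436260_at, with 8.95, 8.80 and 8.66 in daDREAM and 8.93, 8.93 and 8.73 in wild type. The lowest Cacna1g array lay above the highest Cacna1e array, so these neighbours did not overlap. The next places went to 2 probe sets of the P/Q-type pore Cacna1a, 1430408_at and 1450510_a_at, with equal means of 8.26 over the 6 arrays. The next 9 probe sets, of Cacna1a, Cacna1b, Cacna1c and Cacna1d, averaged between 6.82 and 5.96. Each of them overlapped its neighbours within that group. The last 4 averaged 4.86 for Cacna1a 1444455_at, 4.75 for Cacna1h 1422710_a_at, 3.93 for Cacna1e 1421692_at and 3.48 for Cacna1h 1427607_at. Of the 16 neighbouring pairs in the order, 11 overlapped.

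**Figure D1:**
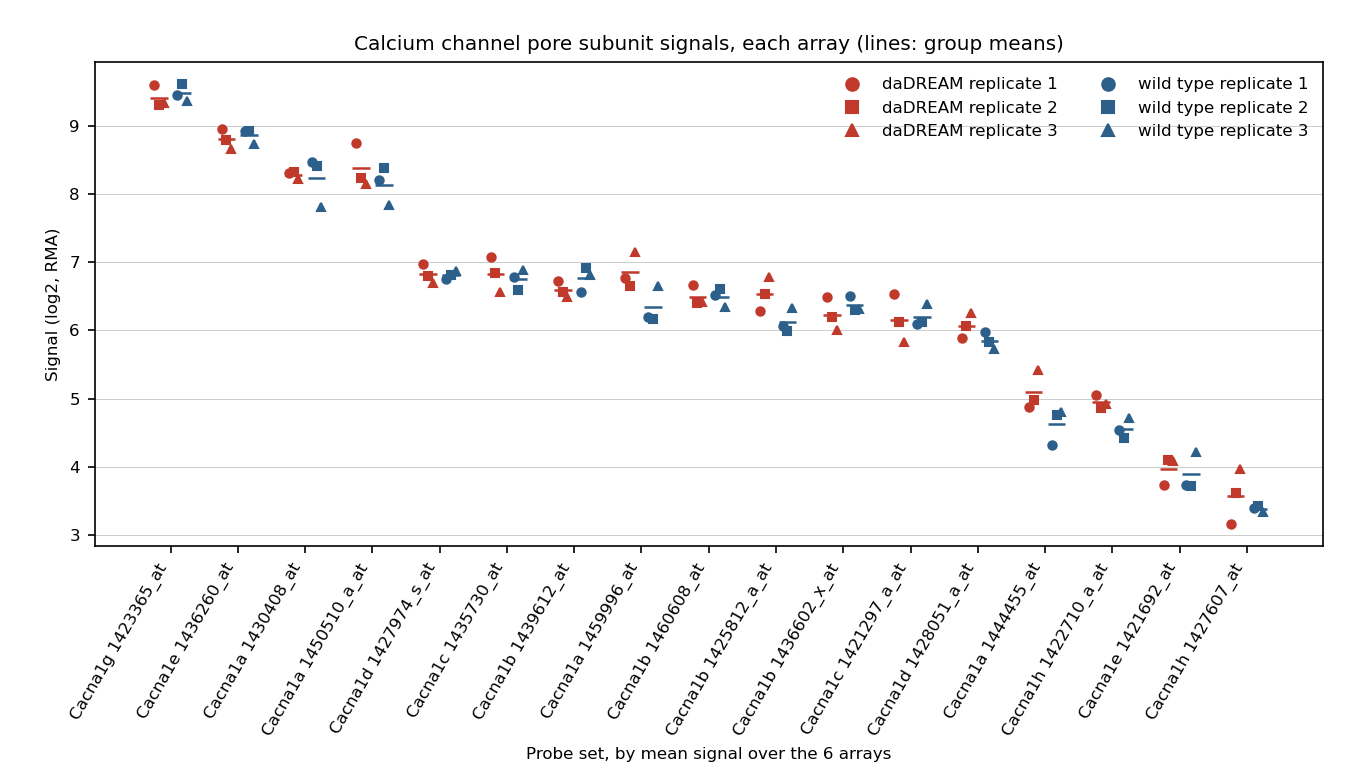
Log2 RMA signal of the 17 pore subunit probe sets on each array, ordered by mean over the 6 arrays, with daDREAM left of wild type, symbols for replicates and short lines for group means. Cacna1g leads at 9.45 and the Cacna1h probe set 1427607_at ends the order at 3.48, and in most probe sets the genotypes overlap.

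This order is one of signals, not of transcripts, because probe sets bind with different strength. Probe sets of 1 gene also lay far apart, and the cause of these spans was not tested. The 2 probe sets of Cacna1e differed by 4.90 log2 units in mean signal, and the 4 of Cacna1a by up to 3.40, while the whole family spanned 5.97. The span was 1.27 in Cacna1h, 0.86 in Cacna1d, 0.62 in Cacna1c and 0.38 in Cacna1b. Dim probe sets could not be separated from background, since no detection call accompanies the values.

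The order was the same at its top and bottom in both genotypes and changed in between. The first and second places and places 13 to 17 held the same probe sets in daDREAM and in wild type. Every other place held a different probe set in each genotype. The widest move was that of Cacna1a 1459996_at, which stood at place 5 in daDREAM and at place 10 in wild type. The other moves spanned at most 3 places: Cacna1b 1425812_a_at stood at place 9 in daDREAM and 12 in wild type.

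No pore subunit passed the test between genotypes. With limma, 0 of the 17 members had an adjusted p under 0.05 after adjustment over all 45037 probe sets, of which 0% were called, and the adjusted p of each member was 0.998. Unadjusted p-values under 0.05 were found at 4 of 17, or 23.5%, against 1.81% of all probe sets, and all 4 were higher in daDREAM, where the share of all probe sets is 1.11%. They belong to 3 genes, Cacna1a with 2 probe sets, Cacna1b and Cacna1h, and probe sets of 1 gene share a target. This count of 4 was 0 without wild-type replicate 1 or without wild-type replicate 2, where 0.719% and 0.859% of all probe sets had such a p. It was 6, 2 and 1 without daDREAM replicate 1, 2 and 3, where 16.1%, 0.79% and 2.35% of all probe sets did. The arrays of the genotypes did not overlap at 2 of 17, or 11.8%, against 6.01% of all probe sets, and both were higher in daDREAM, as 3.75% of all probe sets were. In sign, 12 of 17 were higher and 5 lower in daDREAM (10 and 7 after median centring, and 9 and 8 without daDREAM replicate 1), with a median difference of 0.08, where the median over all probe sets was 0.01 and 51.8% were higher. With a trended, robust prior on the variances 0 members passed and 4 had an unadjusted p under 0.05 with limma, where 1.77% of all probe sets did.

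**Figure D2:**
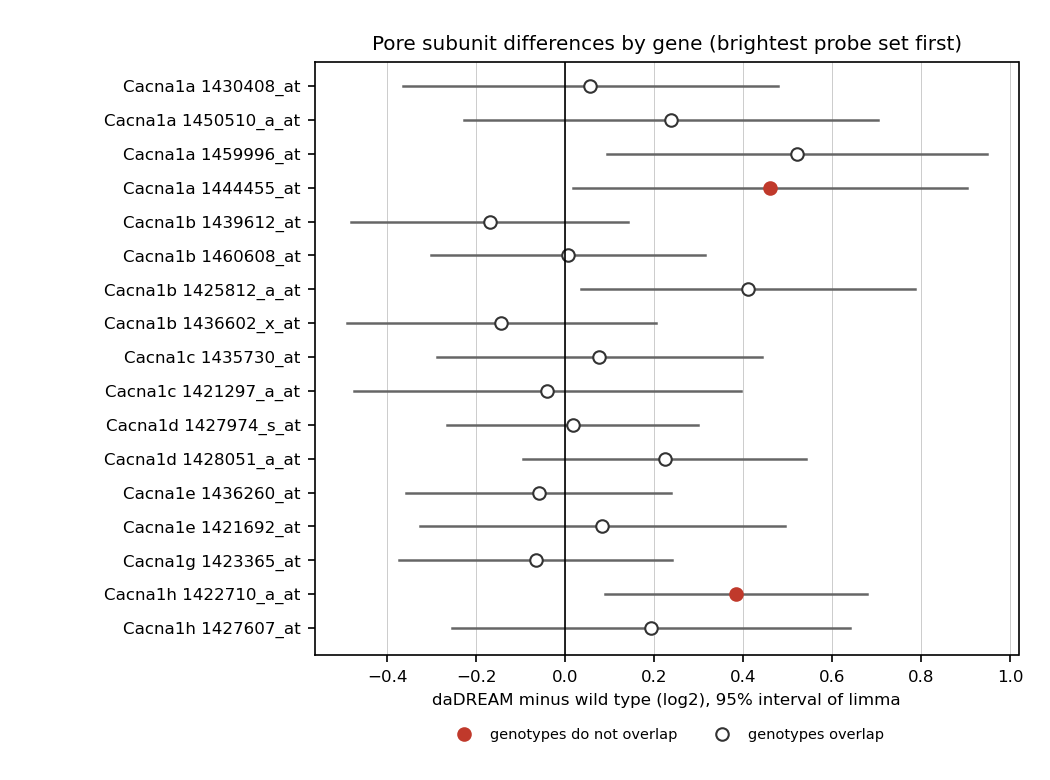
Difference between daDREAM and wild type in log2 units for the 17 probe sets, grouped by gene with the brightest probe set of each gene first, as points with 95% limma intervals. Filled points mark Cacna1a 1444455_at at 0.46 and Cacna1h 1422710_a_at at 0.38, where the arrays of the genotypes do not overlap.

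Cacna1a, the P/Q-type pore, had a higher mean in daDREAM at all 4 probe sets, and none passed the test. Each difference given for a gene is on the log2 scale and positive where daDREAM is higher. Probe set 1430408_at read 8.31, 8.33 and 8.22 in daDREAM and 8.47, 8.41 and 7.81 in wild type. The difference was 0.06 (95% interval, -0.36 to 0.48). Probe set 1450510_a_at read 8.75, 8.23 and 8.15 in daDREAM and 8.20, 8.38 and 7.84 in wild type. The difference was 0.24 (95% interval, -0.23 to 0.70). At both, wild-type replicate 3 was the lowest array of the 6 and the genotypes overlapped.

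Probe set 1459996_at of Cacna1a read 6.77, 6.65 and 7.15 in daDREAM and 6.19, 6.17 and 6.65 in wild type. Its difference of 0.52, or 1.43-fold, was the largest of the 17 (95% interval, 0.09 to 0.95; limma adjusted p = 0.998, unadjusted p = 0.0227). The genotypes touched at 6.65, the value of daDREAM replicate 2 and of wild-type replicate 3. Probe set 1444455_at read 4.87, 4.98 and 5.42 in daDREAM and 4.32, 4.76 and 4.81 in wild type. The difference was 0.46 (95% interval, 0.02 to 0.90; limma adjusted p = 0.998, unadjusted p = 0.0431). Every daDREAM array lay above every wild-type array there, by 0.06 at the nearest pair. In both probe sets daDREAM replicate 3, the array with the narrowest signal distribution, was the highest. When the hybridization control mean was added to the fit, the differences of 1459996_at and 1444455_at were 0.13 and 0.02, while that of 1450510_a_at was 0.84 (limma adjusted p = 0.0829). The part of that level in these differences cannot be told apart from genotype, which it partly follows.

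Cacna1b, the N-type pore of presynaptic terminals, had 2 probe sets higher and 2 lower in daDREAM. Its brightest, 1439612_at, read 6.72, 6.57 and 6.49 in daDREAM and 6.57, 6.91 and 6.81 in wild type. The difference was -0.17 (95% interval, -0.48 to 0.14). Probe set 1425812_a_at read 6.29, 6.53 and 6.79 in daDREAM and 6.06, 5.99 and 6.33 in wild type. The difference was 0.41 (95% interval, 0.03 to 0.79; limma adjusted p = 0.998, unadjusted p = 0.0359). The lowest daDREAM array and the highest wild-type array overlapped by 0.04. Probe sets 1460608_at and 1436602_x_at differed by 0.01 and -0.14, and the second can match sequences of several genes, as its suffix marks.

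The probe sets of Cacna1b did not move alike over the arrays. The signal of 1425812_a_at minus that of 1439612_at was -0.43, -0.04 and 0.30 in daDREAM and -0.51, -0.92 and -0.48 in wild type. The mean of this gap differed by 0.58 between the genotypes, with no overlap. The pair holds the largest and the smallest genotype difference of the gene, a choice that widens the gap. For pairs chosen in the same way in Cacna1a, Cacna1c, Cacna1d, Cacna1e and Cacna1h, the genotypes overlapped. Genes outside the family were not searched for such gaps. The Cacna1b gap was singled out with its values in view and was given no test. The suffix of 1425812_a_at marks probes shared by several transcripts of the gene. Which exons either probe set reads is not known here. When the hybridization control mean was added to the fit, the difference of 1425812_a_at was -0.04, of opposite sign.

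**Figure D3:**
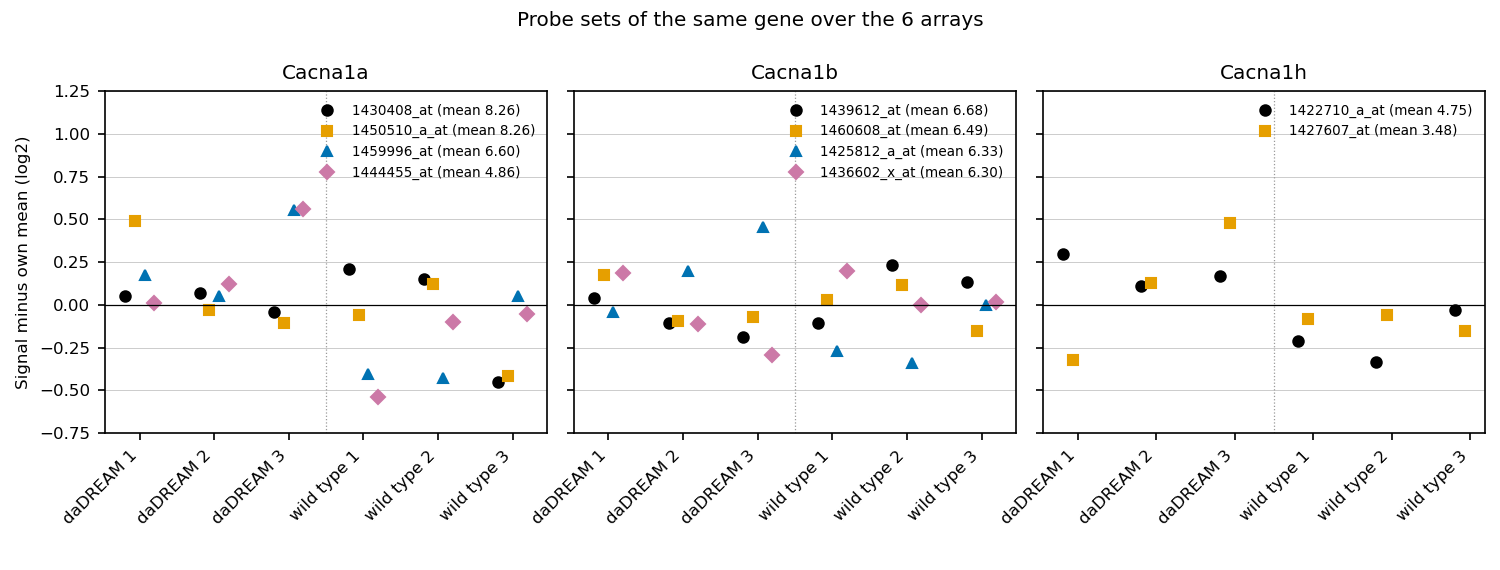
Signal of each probe set minus its own mean over the 6 arrays (log2) for Cacna1a, Cacna1b and Cacna1h, with daDREAM arrays left of wild-type arrays and one symbol per probe set. In Cacna1a the probe sets 1459996_at and 1444455_at peak together in daDREAM replicate 3, whereas the brighter 2 do not, and in Cacna1b 1425812_a_at runs against the other 3 in daDREAM replicates 2 and 3.

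Cacna1e, the R-type pore found in granule cells and dendrites, showed no detectable difference at its bright probe set. Probe set 1436260_at differed by -0.06 with an interval from -0.36 to 0.24, which as a ratio runs from 0.78 to 1.18. Its dim probe set 1421692_at differed by 0.08 with an interval from -0.33 to 0.49. The arrays of the genotypes overlapped at both.

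The L-type pores showed small differences of either sign. Cacna1c differed by 0.08 at 1435730_at and by -0.04 at 1421297_a_at, with intervals from -0.29 to 0.44 and from -0.48 to 0.40. At both, daDREAM replicate 1 was the highest array and daDREAM replicate 3 the lowest, with 7.08 against 6.57 at 1435730_at and 6.53 against 5.83 at 1421297_a_at. Cacna1d, whose Cav1.3 channel opens at lower voltage than Cav1.2, differed by 0.02 at 1427974_s_at, where the 6 arrays spanned 0.28. Its probe set 1428051_a_at read 5.89, 6.07 and 6.25 in daDREAM and 5.98, 5.83 and 5.73 in wild type. The difference was 0.22 (95% interval, -0.09 to 0.54).

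Cacna1g, the T-type pore of Purkinje cells and deep nuclear neurons, differed by -0.07 with an interval from -0.37 to 0.24. Its 6 arrays spanned 0.30, and the genotypes overlapped. Cacna1h, the other measured T-type pore, was dim. Its probe set 1422710_a_at read 5.05, 4.86 and 4.92 in daDREAM and 4.54, 4.42 and 4.72 in wild type. Every daDREAM array lay above every wild-type array, by 0.14 at the nearest pair. The difference of 0.38, or 1.30-fold, had an interval from 0.09 to 0.68 and the smallest unadjusted p of the family (limma adjusted p = 0.998, unadjusted p = 0.0170). The second probe set, 1427607_at, read 3.16, 3.61 and 3.96 in daDREAM and 3.40, 3.42 and 3.33 in wild type, a difference of 0.19 with overlap. Its mean lay above that of 14.6% of all probe sets, and daDREAM replicates 1 and 3 were its lowest and highest arrays.

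Most listed markers of choroid plexus, meninges and microglia ran the same way as Cacna1h 1422710_a_at. Of 13 choroid plexus markers 12 were higher in daDREAM, with a median of 0.21, and their mean signal was 5.84 to 6.03 in daDREAM and 5.45 to 5.73 in wild type. Ttr, the brightest of them, averaged 12.90 in daDREAM and 12.47 in wild type, and Steap1 was the marker with the opposite sign at -0.18. Of 9 meningeal markers 8 were higher, with a median of 0.12 and a mean signal of 6.81 to 6.85 in daDREAM and 6.64 to 6.67 in wild type. Of 9 microglial markers 8 were higher and 1 was equal, with a median of 0.17. None of these markers passed limma over all probe sets. RMA values have no true zero, so no marker is listed at 0. The part of these tissues and cells in the Cacna1h difference was not tested.

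The lists of other cell types and of neighbouring or distant brain regions gave medians from -0.08 to 0.01, where that of all probe sets was 0.01. Purkinje cell markers had 3 of 10 higher with a median of -0.02, granule cell markers 4 of 11 with -0.04, interneuron and Golgi cell markers 3 of 8 with -0.08, and astrocyte and Bergmann glia markers 4 of 9 with -0.03. Oligodendrocyte markers had 2 of 8 higher with a median of -0.06, endothelial and mural cell markers 4 of 10 with -0.01, brainstem markers 1 of 8 with -0.08 and forebrain markers 4 of 7 with 0.01. The brightest markers of these lists, Aldoc, Cbln1, Pvalb, Hopx, Mbp, Rgs5, Dbh and Ppp1r1b, differed by -0.10 to 0.05.

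The spread within a genotype was set beside the difference between genotypes. The difference between genotypes was smaller than the range of the daDREAM arrays at 15 of 17 probe sets, or 88.2%, where the share of all probe sets is 92%. It was smaller than the range of the wild-type arrays at 13 of 17, or 76.5%, where the share of all probe sets is 82%. These shares of the members are near those of all probe sets. The daDREAM range had a median of 0.37 and the wild-type range a median of 0.30, against 0.39 and 0.25 over all probe sets. Between daDREAM replicate 3 and daDREAM replicate 1 the gap was below 0 at 11 members and above 0 at 6, or 35.3%, where 54.5% of all probe sets lie above 0, and it reached -0.70 in Cacna1c 1421297_a_at and 0.80 in Cacna1h 1427607_at.

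**Figure D4:**
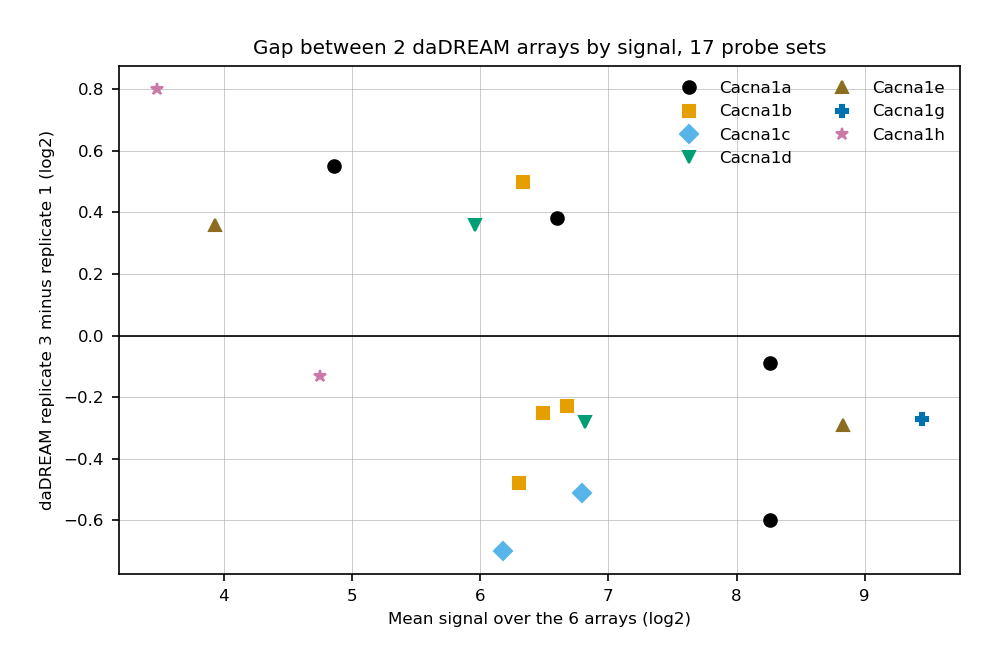
Signal of daDREAM replicate 3 minus that of daDREAM replicate 1 (log2) against the mean signal over the 6 arrays, 1 point for each of the 17 probe sets, with a symbol for each gene. The gap lies below 0 at 11 members and above 0 at 6, and runs from -0.70 to 0.80.

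The array profiles of 3 members were set against all other genes as a description. Likeness was the root mean square difference between profiles centred on their own mean, over 6 arrays and among 10479 probe sets that average 7 or more. Closest to Cacna1g was a probe set of Pde10a, a phosphodiesterase, at 0.018 log2 units, then Kcnip4, a KChIP relative of DREAM, at 0.019 and Dstn, an actin-severing protein, at 0.026. The profile of Cacna1g itself had a standard deviation of 0.12. Closest to Cacna1a 1430408_at were Eif4e2 at 0.021, Nacc2 at 0.030 and Mark2 at 0.043. Closest to Cacna1h 1422710_a_at were Slc13a4, a sulfate transporter, at 0.051, Plvap, a protein of fenestrated endothelium, at 0.071 and Dpysl4 at 0.072. These 3 probe sets differed by 0.35 to 0.37 between genotypes, which follows from choosing the profiles nearest to that of Cacna1h.

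The auxiliary subunits, which traffic and tune the pores, also gave 0 calls. Of 16 listed genes 15 were measured, 8 higher and 7 lower in daDREAM with a median of 0.09, each at its brightest probe set. An unadjusted p under 0.05 with limma was reached by 0 of 15, against 1.81% of all probe sets (7 of 15 without daDREAM replicate 1, where 16.1% of all probe sets did). The brightest was Cacnb4, the beta subunit that is mutated in the lethargic mouse, with a mean of 10.23 in daDREAM and 10.43 in wild type (95% interval of the difference, -0.61 to 0.20). Cacng8, a gamma subunit that also serves AMPA receptors, differed by 0.32 with an interval from -0.05 to 0.69. Cacna2d2, the alpha2delta subunit that is lost in the ducky mouse and is abundant in Purkinje cells, differed by -0.26 with an interval from -0.58 to 0.05. Cacng3 differed by 0.19 and Cacng4 by -0.18. The genotypes did not overlap at 1 of the 15, Cacng3, which is near the share of 6.01% over all probe sets.

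**Figure D5:**
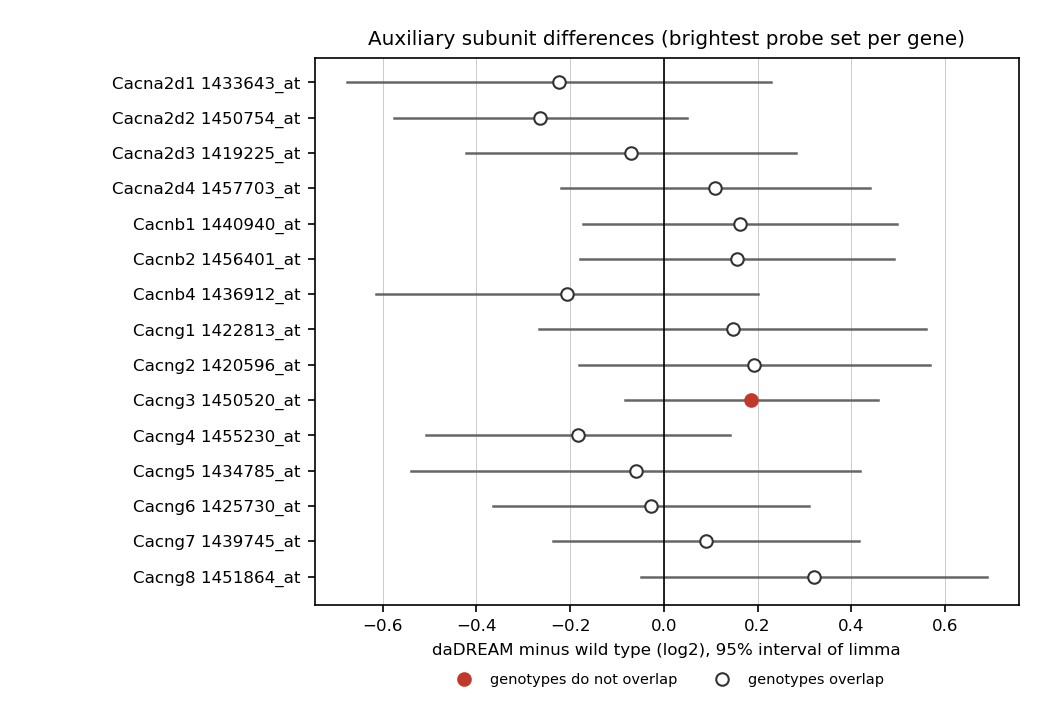
Difference between daDREAM and wild type in log2 units for the brightest probe set of 15 auxiliary subunit genes, with 95% limma intervals. All intervals cross 0, and the filled point marks Cacng3 at 0.19, where the arrays of the genotypes do not overlap, as at 6.01% of all probe sets.

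Other genes of the pathway were counted in the same fit, and none passed. Of 3 pore genes outside the 8, all were higher, with Nalcn, the sodium leak channel, at 0.13, Cacna1s at 0.16 and Cacna1f at 0.04. The genotypes overlapped at all 3. Cacna1s and Cacna1f were dim, with means of 3.865 and 4.70 over the 6 arrays, against 8.52 for Nalcn. Calcium-activated channels and store release channels had 7 of 9 higher with a median of 0.08, and the 4 genes with the smallest unadjusted p were Kcnn1 and Kcnn3, SK potassium channels, at 0.22 and 0.25, Ano1, a calcium-activated chloride channel, at 0.35 and Kcnmb4, a BK channel subunit, at 0.15. Active zone and release genes had 5 of 14 higher with a median of -0.03, and Rims2, which tethers channels at release sites, differed by -0.19, Rims1 by -0.10, Snap25 by 0.09 and Rimbp2 by 0.14. Channel regulators had 8 of 13 higher with a median of 0.11, and the genes with the smallest unadjusted p were Gnb1, a G protein beta subunit, at 0.36, Camk2b, a calmodulin kinase, at 0.20, Stac2 at 0.25 and Ppp3ca, the calcineurin catalytic subunit, at -0.20. The KChIP and Kv4 complex had 3 of 9 higher with a median of -0.04, with Kcnd3 at -0.19, Kcnd2 at -0.18, Kcnip4 at 0.09 and Kcnip3 at 0.10. Whether the Kcnip3 probes read the transgene is not known here, so its value checks no label.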

How the data were processed

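The deposited file holds log2 signals, which the authors made with RMA of the affy package, per the submitters' processing notes. RMA removes background, gives all arrays 1 probe distribution and combines the probes of each set. Tool versions were not found in the labels, and no scanner files were read. A shift common to most genes cannot be seen in such values, and differences at low signal are shrunken.

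Of 45101 probe sets, 64 controls were left out. Genes were named from the platform annotation where a probe set had 1 symbol (34945 probe sets; 932 had several, 9160 none). Genotype and replicate were taken from sample titles. Differences are daDREAM minus wild type, from limma 3.58.1 under R 4.3.3 (functions lmFit and eBayes, both sides tested, Benjamini-Hochberg over all probe sets, threshold 0.05, intervals at 95%). With 3 arrays per genotype, the number of arrays sets the precision, and the median interval of a member reached 0.36 log2 units to either side.

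The members, gene lists and tests were chosen with earlier results of these data known. The text names every member probe set and up to 4 genes per pathway list with the smallest unadjusted p. It names the brightest gene of each list except the meningeal and microglial lists. Also named are the 3 probe sets closest to Cacna1a, Cacna1g and Cacna1h in array profile. Lists use the probe set of each gene with the highest mean, and the first in the file of the 2 Cacna1a probe sets with equal means. Further names were picked with the values in view. Alternatives were a replicate block, limits on mean signal of 5 and 7, renewed quantile normalization, centring on array medians, an intensity-trended robust prior, each array left out, 1 probe set per gene, no _s_at or _x_at probe sets, and the mean of the hybridization controls as a covariate.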

Additional observations from a re-analysis of the deposited data

How the results depend on the processing

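Under all 15 alternatives 0 members, 0 auxiliary subunits and 0 probe sets overall passed the adjusted threshold with limma. At an unadjusted p under 0.05 the count of members was 4, from 0 without wild-type replicate 1 or without wild-type replicate 2 to 6 without daDREAM replicate 1, and 1 with the hybridization control mean in the fit. Over all probe sets it was 817, and 324 to 7254 without 1 array, the highest again without daDREAM replicate 1, and 10471 with the hybridization control mean in the fit. Limits on mean signal of 5 and 7 left 478 and 286 in all, with 2 and 0 members, 1 probe set per gene 270 and 1, and renewed quantile normalization 1361 and 3. The auxiliary count was 0 to 7 without 1 array, and 3 with that mean in the fit.

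The member median of 0.08 was 0.20 with the hybridization control mean in the fit, and 0.045 to 0.093 without 1 array. With limits on mean signal of 5 and 7 it was 0.017 over 13 probe sets and -0.0017 over 4. The hybridization covariate turned the sign of Cacna1b 1425812_a_at (-0.036) and 1436602_x_at (0.21), Cacna1c 1421297_a_at (0.30), Cacna1e 1436260_at (0.21) and 1421692_at (-0.38), Cacna1g 1423365_at (0.20) and Cacna1h 1427607_at (-0.30). Median centring lowers every difference by the same amount. It turned Cacna1b 1460608_at from 0.0067 to -0.02 and Cacna1d 1427974_s_at from 0.017 to -0.01. The cause of the turns with the hybridization covariate was not tested.

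Without 1 array at a time, Cacna1h 1422710_a_at ran from 0.31 to 0.46, Cacna1a 1459996_at from 0.37 to 0.68, Cacna1a 1444455_at from 0.30 to 0.57 and Cacna1b 1425812_a_at from 0.28 to 0.53. Ranges that crossed 0 were -0.15 to 0.18 for Cacna1a 1430408_at, -0.08 to 0.067 for Cacna1b 1460608_at, -0.047 to 0.21 for Cacna1c 1435730_at, -0.23 to 0.13 for Cacna1c 1421297_a_at, -0.06 to 0.08 for Cacna1d 1427974_s_at, -0.13 to 0.012 for Cacna1e 1436260_at and -0.0017 to 0.25 for Cacna1e 1421692_at. The order of signals kept 16 of 17 places after renewed quantile normalization. The remaining place came from Cacna1a 1430408_at and 1450510_a_at, which had equal means and shared a place before it.

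With the replicate number as a block the member count at an unadjusted p under 0.05 with limma was 4, where 2.43% of all probe sets had such a p. After adjustment 0 passed. Deviations of same-numbered arrays correlated at 0.119, -0.281 and 0.323, and those of different-numbered arrays at -0.435 to 0.488. With 3 arrays per genotype these values cannot show whether the numbers pair the samples. Under the block 1 auxiliary subunit had an unadjusted p under 0.05 with limma, where 2.43% of all probe sets did. No array gave a detection call, so signal over background could not be used.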
